A study of Homo sapiens with 6 samples.

Results

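RNA polymerase I (Pol I) and ribosome biogenesis genes were taken as 43 named genes of the 33117 gene symbols measured in WPMY-1 cells, an immortalised line from human normal prostate stroma. The names form a list by function, matched by symbol with older symbols included, and the matching rule used no measured value, although earlier results of these data were known when the list was drawn up. All 43 were found and all 43 passed the filter on low values. They comprise 8 Pol I subunits, 9 factors of Pol I initiation, termination and regulation, 7 proteins of small nucleolar ribonucleoproteins (snoRNPs), 7 genes of small subunit processing, 8 of large subunit assembly, 3 abundant nucleolar proteins and MYC. The control group, shCtrl, was 3 libraries of total RNA from cells transduced with the pLKO1 vector, and the knockdown group, shCAVIN1, was 3 libraries from cells transduced with a short hairpin RNA against CAVIN1. Lentivirus for both groups was packaged in HEK293T cells, and puromycin selection gave stable clones, grown in DMEM with serum. The 3 libraries of a group are described as independent biological replicates, but whether they came from separate transductions or clones is not stated, and p-values here reflect library-to-library spread only, which may be technical. A single hairpin sequence was used.

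Pol I transcribes the ribosomal DNA repeats in the nucleolus into a long precursor RNA. Small nucleolar RNAs and their proteins guide its methylation and pseudouridylation, and large protein assemblies fold and trim it into the RNAs of the small and large ribosomal subunits. CAVIN1, best known as a coat protein of caveolae, was also named PTRF, for Pol I and transcript release factor, because it was found to release finished transcripts from paused Pol I. MYC is a transcription factor known to drive many genes of ribosome production.

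The hairpin sequence is shown because it defines the perturbation. It occurs in 1 transcript of the GENCODE 29 annotation, a transcript of CAVIN1, and in no transcript of a member.
shCAVIN1 hairpin: gtggaggttgaggaggttatt
The letters CACGTG, the core of the E-box that MYC and its partner MAX bind, were searched in the 250 bases before the RefSeq start of each gene (GRCh38.p14); the motif reads the same on both strands. Of the 35 members with a window, 2 held it (5.71%), beside 6.34% of all 35116 windows. They are given in their surroundings, with the motif in capitals, from chr12:101280083-101280104 (plus strand) for UTP20 and chr19:45406620-45406643 (plus strand) for CD3EAP, at 10 and 12 bases before the start. A match is a description of the letters and not evidence of binding.
UTP20: cttttttccgtcCACGTGaccc
CD3EAP: cccctttggatcCACGTGgtctgc

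CAVIN1 itself was measured at 330, 347 and 330.3 FPKM (fragments per kilobase of transcript relative to all mapped fragments) in shCtrl and at 134, 139 and 150.2 FPKM in shCAVIN1. Every knockdown library lay below every control library, and 42.0% of the control level remained. The log2 fold change was -1.25 (SE 0.0586; adjusted p = 2.88e-05 by limma; higher or lower is given throughout as shCAVIN1 against shCtrl on the log2(FPKM + 0.5) scale). An exact 2-sided permutation test of 3 libraries against 3 cannot go below 0.1, the value it gave here.

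Absolute depth is unknown, because only FPKM values were used; the lowest values of the libraries gave depths of 0.688 to 1.13 relative to shCtrl replicate 2. That library stands apart in the listing of RN7SK, an abundant nuclear RNA, which is at 0 there and at 106035 to 151555 FPKM in the other 5. It was also the highest of the 3 control libraries for 34 of the 43 members. All 8 stromal markers reached 1 FPKM, summing to 790 to 933 FPKM in shCtrl and 547 to 570 FPKM in shCAVIN1. COL1A2 (log2 fold change -3.06), FN1 (-1.74), COL3A1 (-1.35) and THY1 (-0.67) fell and S100A4 (2.70) rose. VIM, PDGFRB and COL1A1 were not past the threshold. Among epithelial markers EPCAM, CDH1, KRT5 and KRT14 stayed under 1 FPKM and KLK3 was listed at 0, while KRT8 (log2 fold change 0.28) and KRT18 (-0.81) were present; 0 of 4 endothelial markers reached 1 FPKM, and of the 4 immune markers CD3E was listed at 0 and PTPRC stayed under 1 FPKM, while CD68 (0.49) rose and CD14 (-0.77) fell. Of the 5 smooth muscle and myofibroblast markers, MYH11 and DES stayed under 1 FPKM, TAGLN (-0.96) and CNN1 (-3.11) fell and ACTA2 (0.93) rose, and their sum was 697 to 766 FPKM in shCtrl and 347 to 373 FPKM in shCAVIN1. The 5 proliferation markers summed to 392 to 433 FPKM in shCtrl and 488 to 496 FPKM in shCAVIN1, with CDC20 and BUB1 past the threshold, and the part of any of these shifts in the results on ribosome genes was not tested. In bulk RNA, less RNA per cell and fewer cells of a kind cannot be told apart.

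**Figure D1:**
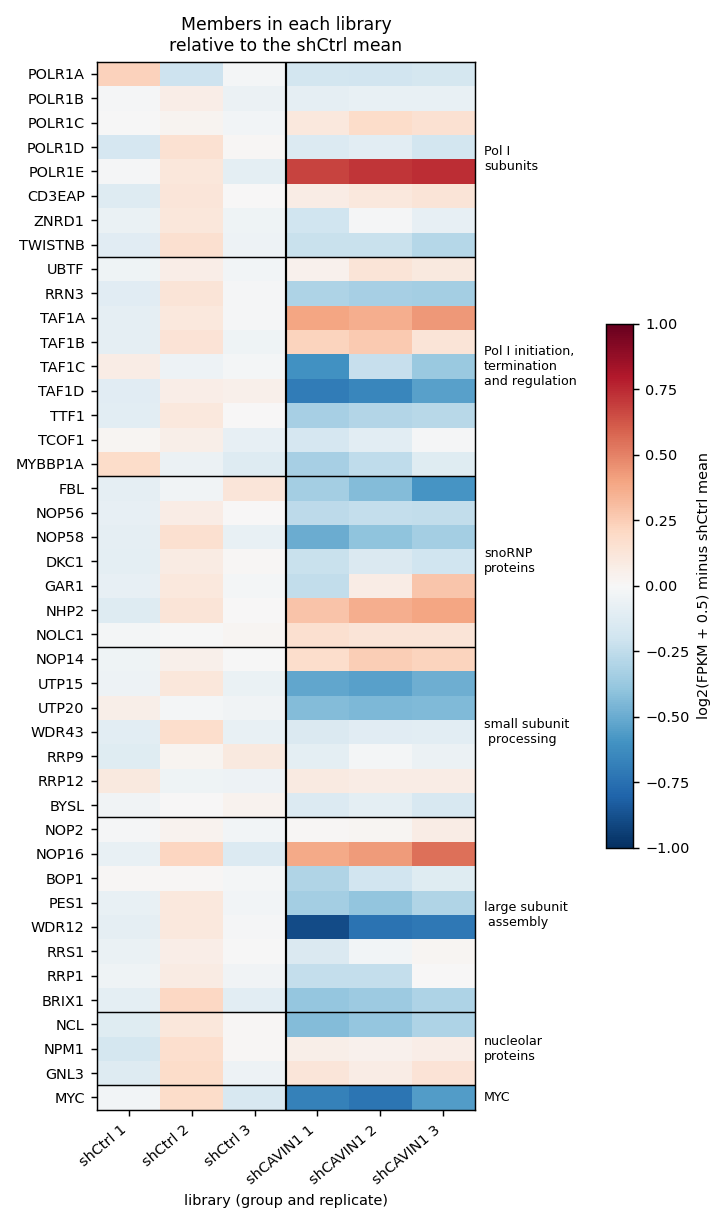
Colours give the log2 difference of each library from the shCtrl mean for the 43 members (lines, grouped by role) in the 3 shCtrl and 3 shCAVIN1 libraries (columns). In the shCAVIN1 columns POLR1E, NOP16 and TAF1A are the most raised and WDR12, MYC and TAF1D the most lowered.

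On the deposited FPKM scale, 18 members were called lower and 7 higher in the knockdown libraries. The fitted changes were small: 4 of the 43 passed 1.5-fold (POLR1E upward, and WDR12, MYC and TAF1D downward) and 0 passed 2-fold. With limma at an adjusted p under 0.05, 25 members were called (58.1%), beside 55.5% of all 13941 genes tested, so the share of members that changed was near that of any expressed gene. The split by direction was 16.3% higher and 41.9% lower for the members, beside 27.3% and 28.2% for all genes. The median log2 fold change was -0.13 for the members and -0.020 for all genes. The 2 groups were fully separated for 27 members (62.8%), 7 higher and 20 lower, beside 64.6% of all genes tested. The summed level of the 43 members lay between 1880 and 2217 FPKM in shCtrl and between 1940 and 1984 FPKM in shCAVIN1, so the sums overlapped. NPM1 alone made up a large part of that sum.

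This picture depends on the scaling. When each library was rescaled to the same sum (TPM), which includes RN7SK and other very abundant RNAs, only POLR1E and TAF1A remained called higher and WDR12 lower, beside 24.5% of all genes, and the median of all genes moved from -0.020 to 0.092. Several members that no longer passed had changes of similar size under TPM, among them NOP16 (0.57), NHP2 (0.47), TAF1D (-0.51) and MYC (-0.53), at limma adjusted p of 0.065, 0.111, 0.0509 and 0.0927. When libraries were scaled to equal sums over protein-coding genes only, an alternative chosen after seeing the data, 25 members were called, 8 higher and 17 lower.

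**Figure D2:**
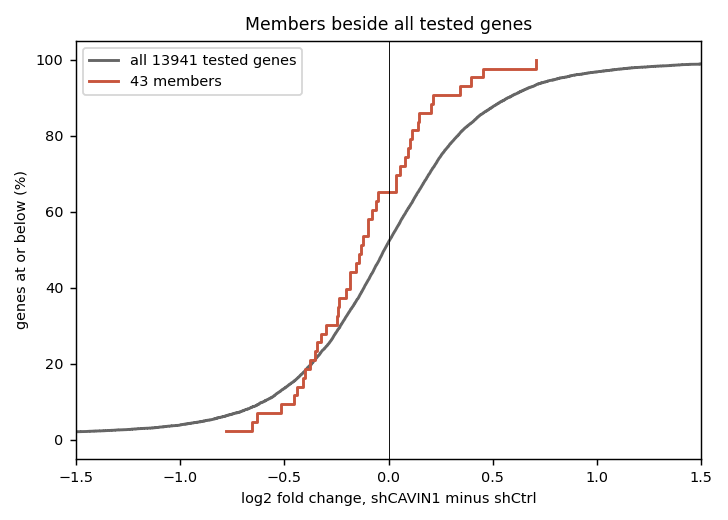
The curves give the percentage of genes (vertical axis) with a log2 fold change, shCAVIN1 minus shCtrl, at or below the value on the horizontal axis, for the 43 members and for all 13941 tested genes; the few genes beyond 1.5 in either direction are outside the frame. The curve of the members crosses zero higher than that of all genes, with 28 of 43 members negative, and it holds no gene at 2-fold or beyond.

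Among the Pol I subunits, POLR1E rose and no other reached a change of 1.5-fold. POLR1A, the largest subunit, read 7.28, 5.24 and 6.05 FPKM in shCtrl and 5.35, 5.32 and 5.36 FPKM in shCAVIN1. POLR1B, which forms the active centre together with POLR1A, read 11.4, 12.01 and 11.0 FPKM in shCtrl and 10.7, 10.9 and 10.9 FPKM in shCAVIN1. The groups overlapped for POLR1A and were narrowly apart for POLR1B, and neither passed the threshold (limma adjusted p = 0.199 and 0.178). POLR1A depended on the control libraries. It was called lower without shCtrl replicate 2 (log2 fold change -0.29, limma adjusted p = 0.033). Without shCtrl replicate 1 it did not pass (-0.069, limma adjusted p = 0.456). POLR1E, the subunit PAF53 that pairs with CD3EAP on the surface of the enzyme, read 26.5, 28.9 and 24.9 FPKM in shCtrl and 42.9, 44.2 and 44.8 FPKM in shCAVIN1. Its groups were far apart, with means of 26.8 ± 2.03 and 44.0 ± 0.974 FPKM (SD, n = 3 libraries per group, as for all later means), a log2 fold change of 0.71 (SE 0.061) and an adjusted p of 0.00022 by limma. Its partner CD3EAP, the subunit PAF49 and the member with the lowest level, read 1.36, 1.72 and 1.55 FPKM in shCtrl and 1.64, 1.69 and 1.73 FPKM in shCAVIN1. These values overlapped, with a log2 fold change of 0.10 (limma adjusted p = 0.339), so the members of this pair differed in what passed the test; that difference was not tested. Exons of CD3EAP share 1593 bases with ERCC1 on the opposite strand, which was measured at 43.5 FPKM, so its value is uncertain.

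The remaining subunits moved little. POLR1C, which Pol I shares with Pol III, read 15.5, 15.8 and 15.2 FPKM in shCtrl and 16.7, 17.6 and 17.3 FPKM in shCAVIN1, a log2 fold change of 0.15 with groups apart (limma adjusted p = 0.0224). POLR1D, its partner in both enzymes, read 24.9, 31.3 and 28.2 FPKM in shCtrl and 25.5, 26.1 and 24.6 FPKM in shCAVIN1. The POLR1D groups overlapped (log2 fold change -0.14, limma adjusted p = 0.198). TWISTNB, a stalk subunit, read 9.96, 12.2 and 10.4 FPKM in shCtrl and 9.21, 9.21 and 8.78 FPKM in shCAVIN1 and fell by 0.24 on the log2 scale (limma adjusted p = 0.0374). ZNRD1, the small zinc-ribbon subunit that aids RNA cleavage, read 22.6, 25.7 and 23.1 FPKM in shCtrl and 20.6, 23.6 and 22.4 FPKM in shCAVIN1, with overlap and a log2 fold change of -0.099 (limma adjusted p = 0.278). In all, 2 of 8 subunits rose and 1 fell (37.5% called, beside 55.5% of all genes), with a median of -0.089. The calls of POLR1C and TWISTNB are weak: each was lost without shCtrl replicate 3, without shCAVIN1 replicate 2 and without shCAVIN1 replicate 3, and that of TWISTNB also without shCAVIN1 replicate 1.

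Of the 5 subunits that Pol I shares with both Pol II and Pol III, 4 rose and 0 fell (80% called, beside 55.5% of all genes), with a median log2 fold change of 0.38. Among them, POLR2L (0.45), POLR2E (0.40) and POLR2H (0.38) led with limma adjusted p of 0.00385, 0.00231 and 0.00364. POLR2E, for example, read 92.1, 96.9 and 87.5 FPKM in shCtrl and 115, 121 and 129 FPKM in shCAVIN1, with no overlap. Of 7 subunits specific to Pol II, 0 rose and only POLR2D fell (14.3% called; log2 fold change -0.41, limma adjusted p = 0.000932). Of 11 subunits specific to Pol III, 3 rose and 3 fell (54.5% called). POLR3C rose by 0.48 on the log2 scale, while POLR3F (-0.51) and POLR3G (-0.76), the subunit known from stem cells and tumours, fell (limma adjusted p = 0.00223, 0.00301 and 0.00118). Whether these lists differ from each other was not tested.

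Of the 9 factors of Pol I initiation, termination and regulation, 1 was higher and 4 were lower. The share called was 55.6%, beside 55.5% of all genes, and the median log2 fold change was -0.24. RRN3, also known as TIF-IA, joins the polymerase to the promoter-bound complex, and read 19.1, 22.7 and 20.5 FPKM in shCtrl and 16.6, 16.3 and 16.2 FPKM in shCAVIN1. All knockdown libraries lay below all controls, a log2 fold change of -0.33 ± 0.0662 (± fitted SE; adjusted p = 0.00681 by limma). UBTF, the factor that coats and opens active ribosomal DNA, read 16.6, 17.9 and 16.8 FPKM in shCtrl and 17.7, 18.8 and 18.4 FPKM in shCAVIN1. Those values overlapped, with a log2 fold change of 0.091 (limma adjusted p = 0.144).

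The subunits of SL1, the complex that holds TBP at the ribosomal promoter, moved apart from each other. TAF1D read 25.2, 28.6 and 28.3 FPKM in shCtrl and 16.7, 17.2 and 18.6 FPKM in shCAVIN1, a fall from 27.4 ± 1.90 to 17.5 ± 0.996 FPKM and a log2 fold change of -0.63 ± 0.0678 (± fitted SE; adjusted p = 0.000521 by limma). TAF1A read 4.45, 5.19 and 4.73 FPKM in shCtrl and 6.43, 6.31 and 6.62 FPKM in shCAVIN1, a rise from 4.79 ± 0.373 to 6.45 ± 0.156 FPKM and a log2 fold change of 0.40 ± 0.0632 (± fitted SE; adjusted p = 0.00257 by limma). Neither gene's groups overlapped. The ratio of TAF1A to TAF1D within a library, chosen after the values were seen and unaffected by the scaling between libraries, was 0.175 ± 0.00731 in shCtrl and 0.369 ± 0.0151 in shCAVIN1. TAF1C fell (log2 fold change -0.40, limma adjusted p = 0.0155), a call lost without shCtrl replicate 1 (the groups run from 9.25 to 10.1 and from 6.15 to 8.14 FPKM). TAF1B was at 7.39 ± 0.669 and 8.57 ± 0.425 FPKM and did not pass (limma adjusted p = 0.0576).

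TTF1, which binds the terminators where Pol I stops, read 9.22, 10.8 and 9.99 FPKM in shCtrl and 7.81, 8.06 and 8.15 FPKM in shCAVIN1. These groups did not overlap, and the log2 fold change was -0.30 (SE 0.0634; adjusted p = 0.00789 by limma). TTF1 binds the same sites of transcript termination at which CAVIN1 was described as a release factor. TCOF1, the nucleolar protein treacle, read 17.4, 17.9 and 16.1 FPKM in shCtrl and 15.1, 15.9 and 16.9 FPKM in shCAVIN1, with overlap (log2 fold change -0.098, limma adjusted p = 0.212). MYBBP1A, a nucleolar repressor of ribosomal DNA transcription, was at 12.1 ± 1.46 and 10.1 ± 0.787 FPKM and did not pass (limma adjusted p = 0.0793).

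Of the 7 proteins of the snoRNPs, 2 were higher and 4 lower (85.7% called, beside 55.5% of all genes), with a median of -0.19. By direction, 28.6% were higher and 57.1% lower, beside 27.3% and 28.2% of all genes. FBL, the methyltransferase of the box C/D particles, read 95.0, 98.7 and 109.8 FPKM in shCtrl and 79.8, 74.7 and 66.7 FPKM in shCAVIN1. It fell from 101 ± 7.69 to 73.8 ± 6.598 FPKM (log2 fold change -0.45, SE 0.0853; adjusted p = 0.00501 by limma). NOP58, a core protein of the same particles, read 32.7, 39.1 and 33.2 FPKM in shCtrl and 24.6, 26.3 and 27.4 FPKM in shCAVIN1 (log2 fold change -0.41, limma adjusted p = 0.00592). NOP56, its partner, read 116, 129 and 122 FPKM in shCtrl and 101, 103 and 103 FPKM in shCAVIN1 (log2 fold change -0.25, limma adjusted p = 0.00667). All of these box C/D members were lower with no overlap between groups.

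In the box H/ACA particles, which make pseudouridine, the members did not share a direction. DKC1, the pseudouridine synthase, was at 39.4 ± 2.44 and 34.5 ± 0.995 FPKM and fell (log2 fold change -0.19, limma adjusted p = 0.0291), although that call was lost when any of shCtrl replicate 3 and the 3 shCAVIN1 libraries was left out. NHP2 read 106, 127 and 117 FPKM in shCtrl and 142, 150.0 and 153 FPKM in shCAVIN1 and rose (log2 fold change 0.34, SE 0.0746; adjusted p = 0.0088 by limma). The ratio of NHP2 to DKC1, also chosen after the values were seen, went from 2.97 ± 0.0836 to 4.30 ± 0.144. GAR1 was at 6.44 ± 0.474 and 6.69 ± 1.29 FPKM, with overlap (limma adjusted p = 0.838). NOLC1, a chaperone that carries snoRNPs between nucleolus and Cajal bodies, was at 35.2 ± 0.512 and 38.8 ± 0.453 FPKM and rose (log2 fold change 0.14, limma adjusted p = 0.0151), a call lost without shCAVIN1 replicate 1 or 2. Of 12 further snoRNP proteins and assembly factors, 0 rose and 6 fell (50% called, beside 55.5% of all genes), with a median of -0.15. SHQ1, a DKC1 chaperone, had a log2 fold change of -0.24, COIL, the Cajal body scaffold, -0.39, and NAF1, an H/ACA assembly factor, -0.44 (limma adjusted p = 0.00943, 0.011 and 0.0168).

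**Figure D3:**
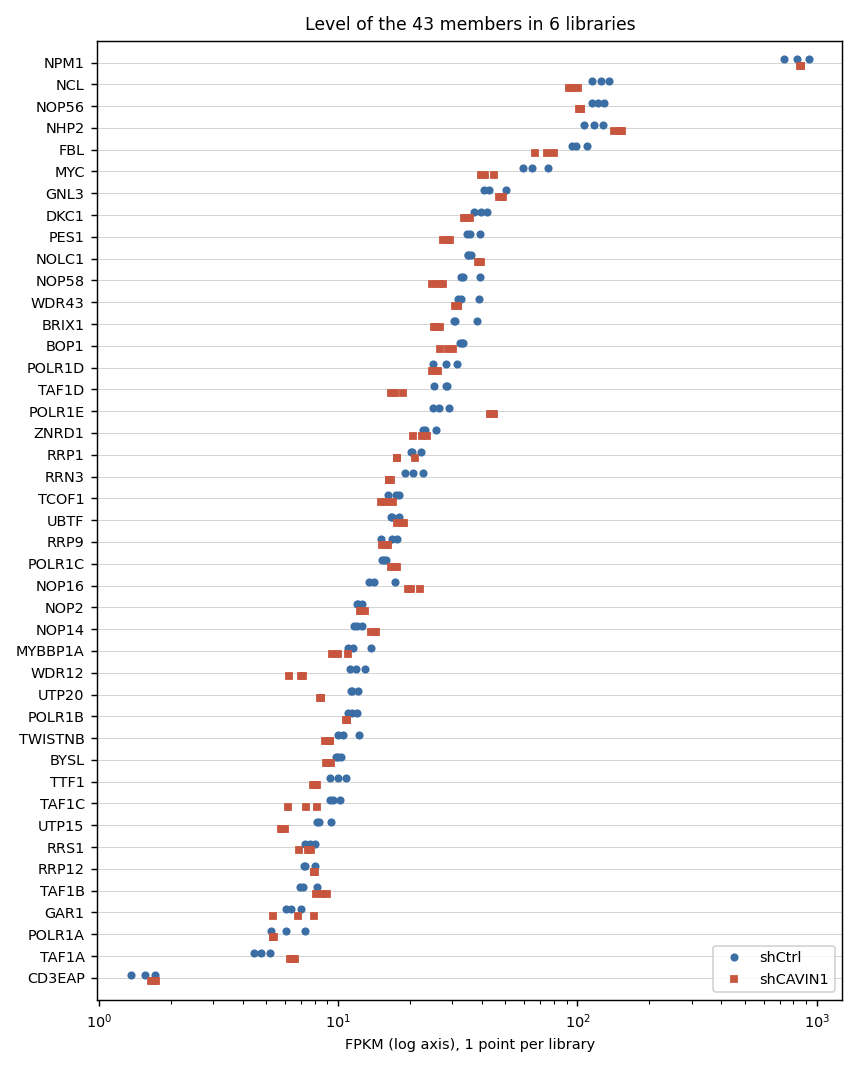
Points give the FPKM (log axis) of the members in each of the 3 shCtrl and 3 shCAVIN1 libraries, with members ordered by their shCtrl mean. NPM1 is the highest at 829 FPKM and CD3EAP the lowest at 1.54 FPKM in shCtrl on average, and the groups of most members lie close together beside this range.

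Small subunit processing had 1 of 7 members higher and 3 lower (57.1% called, beside 55.5% of all genes), with a median of -0.12. UTP20, a scaffold of the early pre-ribosome and, like CD3EAP, a member with CACGTG before its start, read 12.1, 11.4 and 11.3 FPKM in shCtrl and 8.45, 8.37 and 8.44 FPKM in shCAVIN1. The groups were far apart beside the spread of the knockdown libraries, with a log2 fold change of -0.44 ± 0.0423 (± fitted SE; adjusted p = 0.000332 by limma). UTP15, a protein of the UTP-A complex that binds the growing transcript, read 8.27, 9.33 and 8.17 FPKM in shCtrl and 5.84, 5.74 and 5.98 FPKM in shCAVIN1 (log2 fold change -0.51, SE 0.061; adjusted p = 0.000771 by limma). NOP14 moved the other way, with 11.7, 12.6 and 12.02 FPKM in shCtrl and 13.7, 14.4 and 14.2 FPKM in shCAVIN1 (log2 fold change 0.21, limma adjusted p = 0.00785). BYSL, a late factor, read 9.74, 10.001 and 10.3 FPKM in shCtrl and 9.04, 9.31 and 8.91 FPKM in shCAVIN1. That small fall, with a log2 fold change of -0.13 and a limma adjusted p of 0.0368, was lost without shCtrl replicate 3 and without each of the shCAVIN1 libraries. WDR43, RRP9 and RRP12 did not pass, with log2 fold changes of -0.12, -0.060 and 0.080. Among 46 other tested genes of this processing machinery, 5 rose and 19 fell (median -0.14; 52.2% called, beside 55.5% of all genes). ESF1 (log2 fold change -0.56), the methyltransferase WBSCR22 (-0.54) and WDR36 (-0.38) had the lowest limma adjusted p, at 0.000482, 0.001 and 0.00116.

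Large subunit assembly had 1 of 8 members higher and 4 lower (62.5% called, beside 55.5% of all genes), with a median of -0.18. The trio that forms the PeBoW complex, PES1, BOP1 and WDR12, all fell. WDR12 read 11.2, 12.9 and 11.9 FPKM in shCtrl and 6.24, 6.997 and 7.13 FPKM in shCAVIN1, which left 56.5% of the control level and a log2 fold change of -0.78 ± 0.0733 (± fitted SE; adjusted p = 0.000307 by limma), the lowest fold change of the 43. PES1 read 34.5, 39.1 and 35.5 FPKM in shCtrl and 28.6, 27.5 and 29.4 FPKM in shCAVIN1 (log2 fold change -0.34, SE 0.0581; adjusted p = 0.00323 by limma). BOP1 was at 32.9 ± 0.462 and 28.5 ± 1.78 FPKM (log2 fold change -0.20, limma adjusted p = 0.0182), and its call was lost without shCAVIN1 replicate 2. None of this trio had overlapping groups.

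BRIX1, an assembly factor that gave its name to the Brix domain family, read 30.9, 38.1 and 30.6 FPKM in shCtrl and 25.1, 25.6 and 26.6 FPKM in shCAVIN1. Its groups did not overlap (log2 fold change -0.35, limma adjusted p = 0.017), but the call was lost without shCAVIN1 replicate 1 or 2. NOP16 rose, with 14.1, 17.3 and 13.5 FPKM in shCtrl and 19.5, 20.2 and 21.997 FPKM in shCAVIN1 (log2 fold change 0.45, SE 0.101; adjusted p = 0.00973 by limma). The ratio of NOP16 to WDR12, chosen as the extremes of this role, was 1.24 ± 0.102 in shCtrl and 3.03 ± 0.130 in shCAVIN1. NOP2, RRS1 and RRP1 did not pass, with log2 fold changes of 0.035, -0.052 and -0.16. Of 52 other genes of large subunit assembly, 8 rose and 19 fell (51.9% called, beside 55.5% of all genes), with a median of -0.072. They were led by GNL3L (log2 fold change 0.67), the helicase DDX27 (-0.70) and WDR74 (-0.74), with limma adjusted p of 0.000128, 0.000137 and 0.00015.

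The abundant nucleolar proteins divided. NCL, or nucleolin, read 115, 135 and 126 FPKM in shCtrl and 92.2, 95.5 and 101 FPKM in shCAVIN1 and fell with no overlap (log2 fold change -0.38, SE 0.0716; adjusted p = 0.00515 by limma). NPM1, or nucleophosmin, the member with the highest level, read 731, 925 and 829.8 FPKM in shCtrl and 860.5, 849 and 862 FPKM in shCAVIN1. GNL3, or nucleostemin, read 40.5, 50.4 and 42.8 FPKM in shCtrl and 48.4, 46.8 and 48.9 FPKM in shCAVIN1. For both NPM1 and GNL3 the groups overlapped, with the spread lying mainly among the controls (log2 fold changes 0.056 and 0.11, limma adjusted p = 0.646 and 0.291). NPM1 has 45 named pseudogenes in the annotation, and RRN3, NHP2, PES1, NCL, NOP56 and BRIX1 have some too, so reads of these genes could have been split and their values are uncertain.

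MYC read 64.6, 75.1 and 59.0 FPKM in shCtrl and 41.1, 39.5 and 44.7 FPKM in shCAVIN1. Every knockdown library lay below every control, with means of 66.2 ± 8.201 and 41.7 ± 2.65 FPKM and a log2 fold change of -0.65 ± 0.097 (± fitted SE; adjusted p = 0.00189 by limma). Of 13 tested genes of the MYC network, 5 rose and 3 fell (61.5% called, beside 55.5% of all genes), with a median of 0.23. MXD3, a repressor that competes for MAX, rose by 0.89 and MYCBP, a MYC-binding protein, by 0.64 on the log2 scale, while MXI1, another MAX partner and repressor, had a log2 fold change of -0.96 (limma adjusted p = 0.000119, 0.000759 and 0.000179).

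Among further lists, which share RRS1 with the members and RRP8 with the large subunit list, 13 genes of ribosomal DNA silencing had 3 rises and 3 falls (median -0.010). SUV39H1 (log2 fold change 0.90) and SIRT7 (0.75), a histone methyltransferase and a nucleolar deacylase, rose, and the demethylase KDM2A (-0.72) fell (limma adjusted p = 3.26e-05, 0.000546 and 0.000409). Of 17 genes of the exosome and ribosomal RNA trimming, 5 rose and 4 fell (median 0.025). XRN2 (-0.70) and SKIV2L2 (-0.63), a nuclease and a helicase, fell, while the exosome subunit EXOSC3 (0.41) rose (limma adjusted p = 0.000368, 0.00033 and 0.00279). Of 8 genes that link free ribosomal proteins to p53, 2 rose and 2 fell (median 0.0091): the p53 targets CDKN1A (0.63) and MDM2 (0.53) rose and GLTSCR2 (-0.69) fell (limma adjusted p = 0.000244, 0.000268 and 0.000289). The percentages of called genes in these 3 lists were 46.2%, 52.9% and 50%, below or near the 55.5% of all genes.

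The product of Pol I itself could not be read from these libraries: the entries for the precursor RNA45S5 and for RNA18S5, RNA28S5 and RNA5-8S5 were listed at 0 in all 6. Of 18 names of nucleolar and related RNAs, 7 were tested, and SNORD13, an RNA needed for modification of small subunit RNA, fell, from 5292, 5554 and 6692 FPKM to 2734, 3005 and 1888 FPKM (log2 fold change -1.22, SE 0.205; adjusted p = 0.00317 by limma). SNORD3A, the U3 RNA, read 18884, 14260.1 and 13739 FPKM in shCtrl and 16242, 13411 and 13146 FPKM in shCAVIN1, and its groups overlapped (log2 fold change -0.12, limma adjusted p = 0.64). RMRP and RPPH1 had log2 fold changes of -0.47 and -0.48 and did not pass (limma adjusted p = 0.164 and 0.0925). FPKM values of transcripts as short as these are imprecise.

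Several of the larger changes among the members sat in stretches of chromosome whose other genes moved the same way. For each member, the 25 nearest tested protein-coding genes on either side in GENCODE 29 (GRCh38) were taken, a comparison added after seeing the data. The absolute neighbour median was at least 0.25 for 8 of the 43 members, beside 25.1% of 11958 coding genes. Such stretches were therefore not particular to the members. WDR12, on chromosome 2 (chr2:202874782-203014798, minus strand), lay among 50 neighbours over 10.4 Mb of which 41 fell and 2 rose, with a median log2 fold change of -0.54. NOP58, at chr2:202265716-202303666, shares 47 neighbours with WDR12, and of its 50 neighbours 39 fell and 2 rose (median -0.53). These members are therefore not independent observations. TAF1D (chr11:93729948-93784391) had 35 neighbours lower and 9 higher, UTP15 (chr5:73565443-73583377) 33 and 1, NCL (chr2:231453531-231483641) 34 and 6, and BRIX1 (chr5:34915376-34925996) 31 and 7. In the other direction, NHP2 (chr5:178149460-178153967) had 3 lower and 35 higher, and POLR1E (chr9:37485935-37503697) 6 lower and 27 higher.

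**Figure D4:**
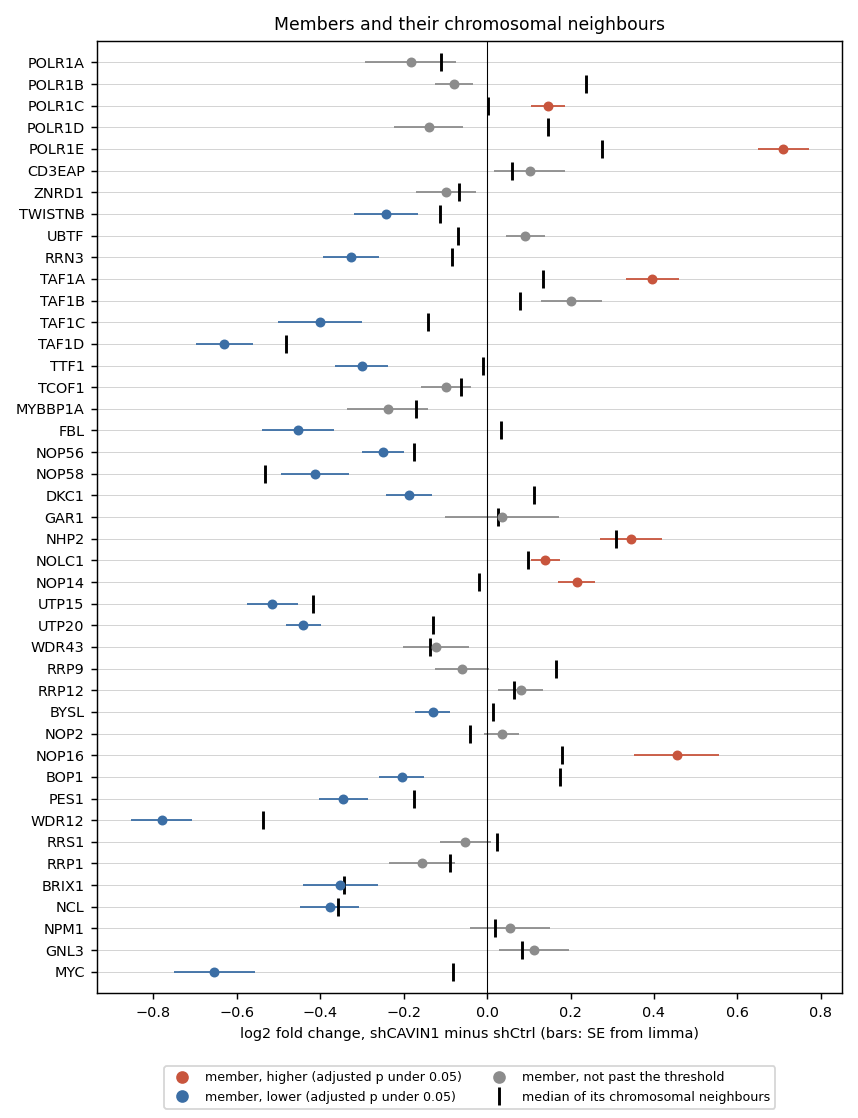
Each line is a member, and its point gives its log2 fold change, shCAVIN1 minus shCtrl, on the horizontal axis, with the fitted SE as a bar. The black tick in the line gives the median log2 fold change of its nearest tested protein-coding genes (25 on either side, fewer at chromosome ends). The tick lies on the side of the point and nearer to it for WDR12, NOP58, TAF1D, UTP15, NCL, BRIX1 and NHP2. It lies farther from the point for MYC, FBL and POLR1E.

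Of the 18 members that fell, 14 had a negative neighbour median, and of the 7 that rose, 6 had a positive one. Pearson's r between a gene's change and its neighbour median was 0.74 over the 43 members and 0.40 over 11958 coding genes, given as a description because neighbours share windows and libraries. After the neighbour median was subtracted in each library, 20 members were called (46.5%), 6 higher and 14 lower, beside 53.9% of the 11958 genes, and 16 were called in the same direction as before. The median of the members was then -0.059. A setting with 10 genes on either side gave 4 higher and 11 lower.

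Some members kept their change beside their neighbours and others did not. MYC had a log2 difference of -0.56 from its neighbours (limma adjusted p = 0.000299), FBL of -0.46 (0.00268), POLR1E of 0.42 (0.000243), BOP1 of -0.37 (0.000212), UTP20 of -0.30 (0.00289) and NOP16 of 0.29 (0.016). WDR12 kept -0.24 (limma adjusted p = 0.0261), a call lost with 10 neighbours on either side. NHP2 (0.012), NCL (-0.024), BRIX1 (-0.051), UTP15 (-0.080), NOP56 (-0.088) and TAF1D (-0.13) no longer passed, at limma adjusted p of 0.89, 0.746, 0.626, 0.309, 0.184 and 0.0769. NOP58 reached 0.099 (limma adjusted p = 0.338), the opposite sign of its change before. TWISTNB (-0.12) and NOLC1 (0.055) did not pass either (limma adjusted p = 0.124 and 0.291). POLR1B, in contrast, sat among genes with a median of 0.24 and was called lower beside them (-0.30, limma adjusted p = 0.000707). POLR1D (-0.28), RRP9 (-0.24) and UBTF (0.15) were also newly called beside their neighbours (limma adjusted p = 0.0124, 0.00465 and 0.0319). CAVIN1 kept a difference of -1.26 from its neighbours. Outside the members, the Pol II subunit POLR2D sat among genes with a median of -0.40 and no longer passed (-0.019, limma adjusted p = 0.774). The shared subunit POLR2L sat among genes with a median of -0.35 and stayed higher (0.83, limma adjusted p = 2.95e-05). What moves these stretches was not tested.

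Transcript length and antisense overlap also bear on the values. The median log2 fold change of coding genes went from 0.056 in the fifth with the shortest transcripts to -0.094 in that with the longest, and the members fell 9, 12, 11, 8 and 3 into these 5 bins from short to long. After the median of genes of like length was subtracted, 7 members were higher and 20 lower. Exons of 12 members overlap those of a gene on the opposite strand measured at 0.5 FPKM or more. The library kit keeps strand, but the strand setting of the authors' counting is not given in the sources used here, so reads of such pairs cannot be told apart. Among them are POLR1C, TAF1D, NHP2, NOP14, UTP15, NOP16, PES1, WDR12 and BRIX1, which passed the threshold.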

How the data were processed

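Total RNA of 6 WPMY-1 libraries was sequenced. The authors deposited FPKM values for 33117 gene symbols; per the submitters' processing notes, the build was GRCh38 and the tools included bcl2fastq 2.17.1.14 and TopHat2 (given as 2.2.5). Which quantifier, annotation and strand mode were used is not given in the sources used here. FPKM are not counts, so no count model was used, and depth and counting error are unknown. Genes with a mean FPKM of at least 0.5 (13941) were tested on log2(FPKM + 0.5) with limma 3.58.1 (R 4.3.3, trended variance), with Benjamini-Hochberg adjustment over all of them and a threshold of 0.05; the script was tested on simulated data. Positions came from GENCODE 29 and promoter windows from RefSeq. Libraries with the same replicate number did not deviate together, so no block was used. Values per library are given for the Pol I subunits, MYC, UBTF, RRN3, TCOF1 and up to 4 members per role with the lowest adjusted p, and up to 3 genes per related list. The members and lists were chosen with earlier results of these data known. Alternatives were 15 planned settings and 4 added after seeing the data.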

Additional observations from a re-analysis of the deposited data

How the results depend on the processing

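CAVIN1 stayed lower in all 19 alternatives (-1.30 to -1.21 on the log2 scale when 1 library was left out). Leaving out 1 library at a time gave 3064 to 4267 genes higher and 3154 to 4201 lower over all genes, and 5 to 10 members higher and 13 to 19 lower. Without shCtrl replicate 2 the member counts were 10 higher and 19 lower, with a median of -0.068. Rescaling to TPM gave 2199 genes higher and 1213 lower, with 2 and 1 members; subtracting the median of 10 neighbours on either side gave 4 and 11 members. Same-numbered libraries had deviations correlated at 0.094, 0.071 and -0.028. A replicate block gave 3511 genes higher and 3656 lower, with 6 and 17 members, and ended the calls of POLR1C, NOLC1 and BYSL. The least stable member calls were BYSL (lost in 10 of 19 alternatives), TWISTNB (8), POLR1C (7), NOLC1 (7), DKC1 (5) and BRIX1 (5). Signs turned under TPM for POLR1B (0.038), ZNRD1 (0.021), TCOF1 (0.021), RRP9 (0.059), RRS1 (0.063) and POLR2I (0.028), and under quantile normalization for RRS1 (0.0068). Leaving out 1 library gave ranges across 0 for GAR1 (-0.086 to 0.18, negative without shCtrl replicate 1, -0.0059, or shCAVIN1 replicate 3), NPM1 (-0.031 to 0.14), POLR2I (-0.15 to 0.0091) and SNORD3A (-0.22 to 0.021). With 25 neighbours on either side signs turned for NOP58 (0.099), GAR1 (-0.018), WDR43 (0.025) and RRP12 (-0.016). With 10 they turned for POLR1A (0.0066), ZNRD1 (0.054), NOP58 (0.21), GAR1 (-0.048), NHP2 (-0.065), WDR43 (0.044), NOP2 (-0.085) and POLR3F (0.0029), and with genes of like length for GAR1 (-0.033). Of these, NOP58, NHP2 and POLR3F had been called; the cause was not tested.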

Other observations

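Introns of 7 members host 26 listed small nucleolar RNAs, 10 of them at 0 in all 6 libraries. Of those hosted by TAF1D, SNORA8 read 223, 146 and 199 FPKM in shCtrl and 70.5, 106 and 31.8 FPKM in shCAVIN1. SNORA18, in the same host, read 159, 114 and 119 FPKM in shCtrl and 61.1, 73.6 and 84.8 FPKM in shCAVIN1. The groups of both did not overlap, as for 64.6% of all genes tested, and TAF1D itself was lower. SNORA40, also hosted by TAF1D, overlapped between groups, at 194, 88.9 and 54.5 FPKM in shCtrl and 84.5, 91.3 and 108 FPKM in shCAVIN1. SNORA25, SNORA32 and SNORA1, in the same host, overlapped too, and its SNORD5 and SNORD6 were at 0 in all 6 libraries. SNORD110, hosted by NOP56, read 626, 1085 and 550.3 FPKM in shCtrl and 517, 1213 and 1165 FPKM in shCAVIN1, and its groups overlapped. These values were not tested and were chosen after they were seen.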
